A study of Mus musculus with 2 samples.

Results

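The 53 genes described here encode the initiation and elongation factors of cytosolic translation, with a few proteins that bind or modify them. They were all genes whose array annotation symbol begins with Eif1 to Eif6, Eef1 or Eef2, without the Eif2ak kinases and Eef2k, and they were 53 of the 18193 genes that could be named on the arrays. The tissue was whole pancreas of 10-week-old male offspring of C57BL/6J mice. In the threonine-deficient group the dams had eaten a diet lacking sufficient threonine from embryonic day 12.5 to 14.5, and in the control group they had eaten a control diet over the same days. Offspring of both groups were weaned at 3 weeks onto control diet and received no treatment of their own. Each group was 1 pool of RNA on 1 Affymetrix mouse expression array, and how many animals gave RNA to each pool is not stated in the labels. No value below therefore has a replicate or a test, and each difference is one between 2 pools.

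Translation begins when eIF2, loaded with GTP, brings the initiator methionyl-tRNA to the small ribosomal subunit, where eIF1, eIF1A and the large scaffold eIF3 are bound. The eIF4 factors recognise the cap of the mRNA and unwind its leader, eIF5 and eIF5B complete the joining of the large subunit, and eEF1 and eEF2 then deliver aminoacyl-tRNAs and move the ribosome along. A shortage of an amino acid such as threonine activates a kinase that phosphorylates eIF2 and so blocks its exchange factor eIF2B. The arrays measured mRNA only and do not show phosphorylation. Pancreatic acinar cells are known for a very high rate of protein synthesis.

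Values are signal intensities on an arbitrary linear scale, 1 probe set per gene, the brightest on average. Signals of different probe sets depend on the probes as well as on the mRNA, so levels are compared only between arrays. Before the log2 was computed, any signal under a floor of 265 was set to that value, and each log2 ratio puts the threonine-deficient pool over control. Of the 53 genes, 49 lay above the floor on both arrays, 2 on one array and 2 on neither. The 8 acinar markers that were read lay well above the floor on both arrays, with Cpa1, a carboxypeptidase, at 173591 in the threonine-deficient pool and 168872 in the control pool.

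The mRNAs of the translation machinery differed little between the pools. The median log2 ratio was −0.01 for the 51 factors that passed the floor, against 0.00 over all 10758 genes above the floor, with 25 factors higher and 26 lower in the threonine-deficient pool. At least 1.5-fold higher were 2 of the 51 factors, or 3.92%, namely Eif4e3 and Eif2d, where 7.2% of all genes passed that fold. No factor was at least 1.5-fold lower, against 5.36% of all genes. On floored signals none of the 51 reached 2-fold, a fold passed by 1.28% of all genes in the higher direction and by 0.874% in the lower direction. For Eif4a3 and Eef1aknmt, below the floor in the control pool, the ratio is only a lower bound, so their true ratio may pass 2-fold. With the floor value added to every signal in place of the floor Eif4a3 had 1.12 and Eef1aknmt 0.82, and with no floor they had 3.91 and 2.66. With these bounds counted at their value, 40 factors, or 78.4%, lay within 1.2-fold, against 56.6% of all genes. Ratios of dim genes spread more widely than those of bright genes.

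**Figure D1:**
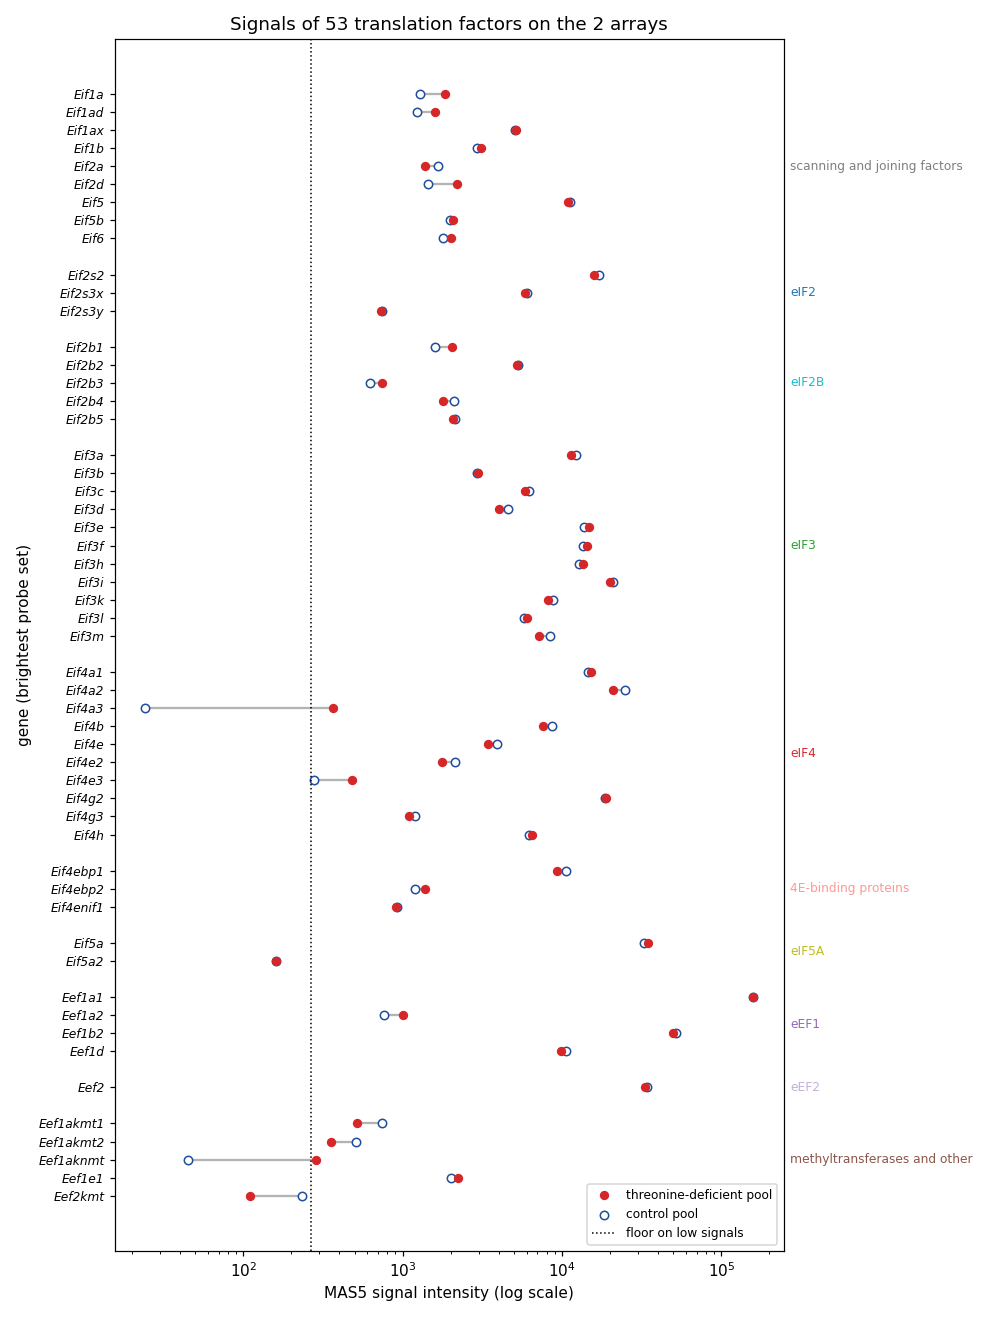
Signal intensity (log axis) of the brightest probe set of each of the 53 genes in the threonine-deficient pool (filled red) and the control pool (open blue), grouped by complex, with the floor of 265 as a dotted line. Most pairs of points nearly coincide, and the wide gaps belong to genes such as Eif4a3 that lie at or near the floor.

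Signal strength was taken into account in 2 ways. First, 26 factors had signals over 4000 on both arrays. None of them was 1.2-fold apart, and their log2 ratios ran from −0.25 to 0.09, whereas 13.1% of the 932 genes of that brightness were at least 1.2-fold apart. The median log2 ratio was −0.06 both for these 26 factors and for the 932 genes. Among the 25 dimmer factors 44.0% were at least 1.2-fold apart, close to the 46.3% of the 9826 dimmer genes. Second, each ratio was set against a local spread, the scaled median absolute deviation of the ratios of the 500 genes nearest in signal. That deviation was taken about the median of those genes, but the ratios were not centred on that median. By more than the local spread 7 factors were higher and 8 lower in the threonine-deficient pool, which is 13.7% and 15.7% of the 51, against 15.9% and 16.8% of all genes. Among the 26 bright factors none was higher and 5 were lower by more than it. Among the 932 bright genes 73 were higher and 232 lower. With the trend of ratio on signal removed, Eif3m (−0.15), Eif3d (−0.13), Eif4b (−0.12), Eif4ebp1 (−0.12) and Eif4e2 (−0.22) lay within the same spread. Eif3e and Eif3f (both 0.15) were then higher by more than it. The median size of a ratio was 0.63 local spreads for the factors and 0.68 for all genes.

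**Figure D2:**
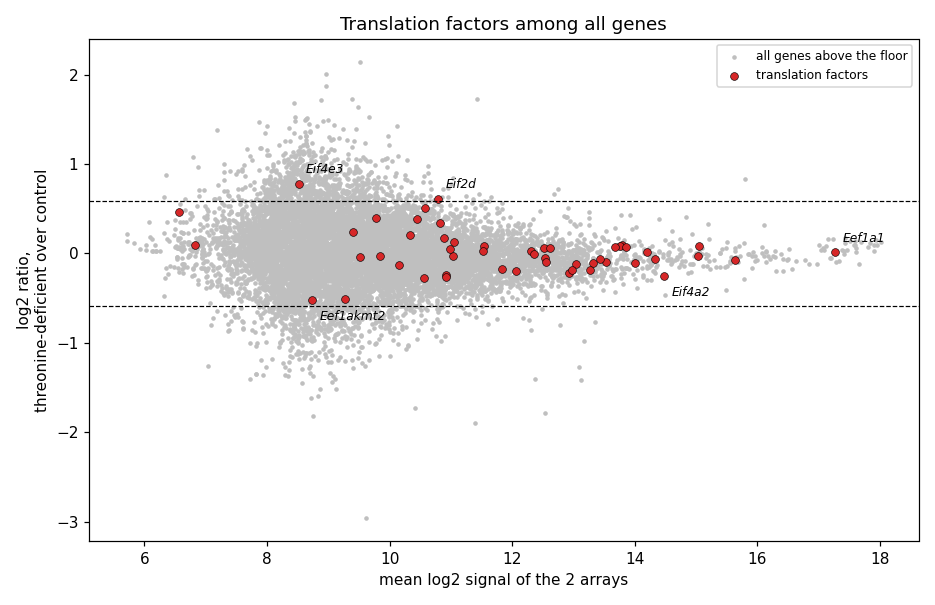
Log2 ratio (threonine-deficient over control) against mean log2 signal for 10758 genes above the floor (grey) and the 51 translation factors among them (red), with dashed lines at 1.5-fold. The factors narrow towards zero with rising signal, and only Eif4e3 and Eif2d lie beyond a dashed line.

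The initiator tRNA carrier eIF2 was read through 3 of its 4 listed subunit genes. All 3 were slightly lower in the threonine-deficient pool, with a median log2 ratio of −0.06, and Eif2s1 was not among the genes read. Eif2s2, which encodes the beta subunit, had signals of 15749 in the threonine-deficient pool and 16991 in the control pool (−0.11). Its 4 other probe sets above the floor ran from −0.31 to 0.41, so the direction was not the same in all. Eif2s3x, the X-linked gene of the GTP-binding gamma subunit, had 5811 in the threonine-deficient and 6044 in the control pool (−0.06), and its further probe sets gave −0.06 and −0.13. Its Y-linked counterpart Eif2s3y had 727 in the threonine-deficient and 745 in the control pool (−0.04), so this Y-linked mRNA was read above the floor in both pools, which are labelled male. All 3 differences were smaller than the local spreads of 0.14, 0.17 and 0.37.

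The exchange factor eIF2B, which reloads eIF2 with GTP, was read through all 5 of its subunit genes, 2 higher and 3 lower, with a median log2 ratio of −0.01. Eif2b1, the alpha subunit of the regulatory part, had 2025 in the threonine-deficient and 1599 in the control pool, a log2 ratio of 0.34 where the local spread was 0.25. It was the one eIF2B gene beyond its local spread. Eif2b2, the beta subunit, had 5213 in the threonine-deficient and 5252 in the control pool (−0.01). A dimmer probe set of Eif2b2 nevertheless gave −0.85, with 1137 in the threonine-deficient and 2048 in the control pool, and another gave −0.07. Eif2b3, the gamma subunit of the catalytic part, had 739 in the threonine-deficient and 625 in the control pool (0.24). Eif2b4, the delta subunit, had 1776 in the threonine-deficient and 2100 in the control pool (−0.24). Eif2b5, the catalytic epsilon subunit, had 2075 in the threonine-deficient and 2120 in the control pool (−0.03). The subunits thus went both ways, and without probe sets that may be shared between transcripts, which leaves Eif2b1, Eif2b3 and Eif2b5, the median was 0.24.

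The scaffold eIF3 holds the small subunit, the mRNA and the other factors together, and 11 of its subunit genes were read. Of these, 5 were higher and 6 lower in the threonine-deficient pool, with a median log2 ratio of −0.07. The highest ratio was that of Eif3e, with 14686 in the threonine-deficient and 13811 in the control pool (0.09). The lowest was that of Eif3m, with 7207 in the threonine-deficient and 8397 in the control pool (−0.22, local spread 0.16). A further probe set of Eif3m, close to the floor, gave 0.05. In the brightest probe sets Eif3m and Eif3d (−0.194, local spread 0.186) were the 2 subunits lower by more than the local spread. The other 9 lay within it, and no subunit was 1.2-fold apart. A further probe set of Eif3d, close to the floor, gave −0.56, with 297 in the threonine-deficient and 437 in the control pool. Another of Eif3a gave 0.29. With the trend of ratio on signal removed, Eif3m and Eif3d lay within the local spread, and Eif3e and Eif3f were higher by more than it.

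Among the cap-binding and helicase factors of eIF4, 5 of 10 genes were higher and 5 lower, with a median log2 ratio of −0.06. That median was −0.15 both with the floor at the 75th percentile and without probe sets that may be shared between transcripts. Eif4e encodes the cap-binding protein itself and had 3449 in the threonine-deficient and 3881 in the control pool (−0.17, local spread 0.19). Eif4e3, a cap-binding relative, had 479 in the threonine-deficient and 279 in the control pool, 1.72-fold higher, a log2 ratio of 0.78. It was the highest ratio among the 49 factors above the floor on both arrays. Its control signal lay just above the floor, its local spread was 0.56, and its other probe set was at the floor on both arrays. Eif4e2, which encodes a cap-binding protein that represses translation, had the lowest ratio of the group, with 1755 in the threonine-deficient and 2114 in the control pool (−0.27, local spread 0.25). The 4 other probe sets of Eif4e2 were all positive, from 0.08 to 0.27, some of them bounds from control signals under the floor, and the median over its probe sets was 0.08, so the sign of Eif4e2 rests on the choice of probe set.

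Of the cytoplasmic helicase paralogues of eIF4A, Eif4a2 was lower by more than its local spread and Eif4a1 lay within its own. Eif4a1 had 15242 in the threonine-deficient and 14513 in the control pool (0.07, local spread 0.14), with −0.09 and −0.02 in its other probe sets, so its sign rests on the choice of probe set. Eif4a2 had 20793 in the threonine-deficient and 24766 in the control pool (−0.25), 1.19-fold lower and beyond its local spread of 0.14, in the 1 probe set that reads it. It had the lowest ratio of the 26 bright factors. Eif4a3, which works in the exon junction complex rather than at the cap, was read by 1 dim probe set with 365 in the threonine-deficient pool. That probe set was below the floor in the control pool, at 24.3. On floored signals it was 1.38-fold higher (0.46, local spread 0.30), a bound for the measured signals only. Flooring also narrows the local spread among genes this dim. Of the eIF4G family of scaffolds, Eif4g1 was not among the genes read. Eif4g2 had 18835 in the threonine-deficient and 18663 in the control pool (0.01), while its 3 other probe sets above the floor ran from −0.22 to −0.05. Eif4g3 had 1091 in the threonine-deficient and 1193 in the control pool (−0.13), and −0.22 in its other probe set.

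The 4E-binding proteins hold eIF4E away from eIF4G when mTORC1 is inactive. Eif4ebp1 had 9266 in the threonine-deficient and 10532 in the control pool (−0.18, local spread 0.15). With the trend of ratio on signal removed it had −0.12. Its other probe sets gave −0.33, with 4531 in the threonine-deficient and 5716 in the control pool, and −0.64 as a bound, since that reading fell below the floor in the threonine-deficient pool. Eif4ebp1 was thus lower in all 3 of its probe sets. Eif4ebp2 had 1383 in the threonine-deficient and 1201 in the control pool (0.20, local spread 0.28), and its other readings of −0.24 and of 0.82, a bound from a control signal just under the floor, did not share a sign. Eif4enif1, which carries eIF4E into the nucleus, had 908 in the threonine-deficient and 923 in the control pool (−0.02).

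Of the factors of scanning, subunit joining and tRNA delivery, 7 of 9 genes were higher, with a median log2 ratio of 0.08. Over all genes above the floor 50.1% were higher. Only 3 of the 7 were higher by more than their local spread. The 25 factors not over 4000 on both arrays also had a median of 0.08, with 15 higher. Most genes of this group are among those 25, so the medians are not independent. Whether a lean is particular to this group was not tested. Eif2d, which encodes a factor able to bring tRNA to the ribosome without eIF2 and to take part in recycling, had 2193 in the threonine-deficient and 1436 in the control pool. It was 1.53-fold higher, a log2 ratio of 0.61 where the local spread was 0.26. Its other probe sets gave 0.55, a bound from a control signal under the floor, 0.22 and −0.16, and with the median over all 4 the ratio was 0.39. The other genes of this group ran from −0.28 for Eif2a, another eIF2-independent tRNA binder, to 0.51 for Eif1a, which encodes a scanning factor. Second probe sets gave 0.29 for Eif2a and 0.03 for Eif1a. Eif1a and Eif1ad, whose role is not described here, were higher by more than their local spreads. Of these, Eif1ad had 1598 in the threonine-deficient and 1221 in the control pool (0.39), and its second probe set gave 0.44. Eif1a, Eif1ad and Eif2a were named after their values were seen.

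**Figure D3:**
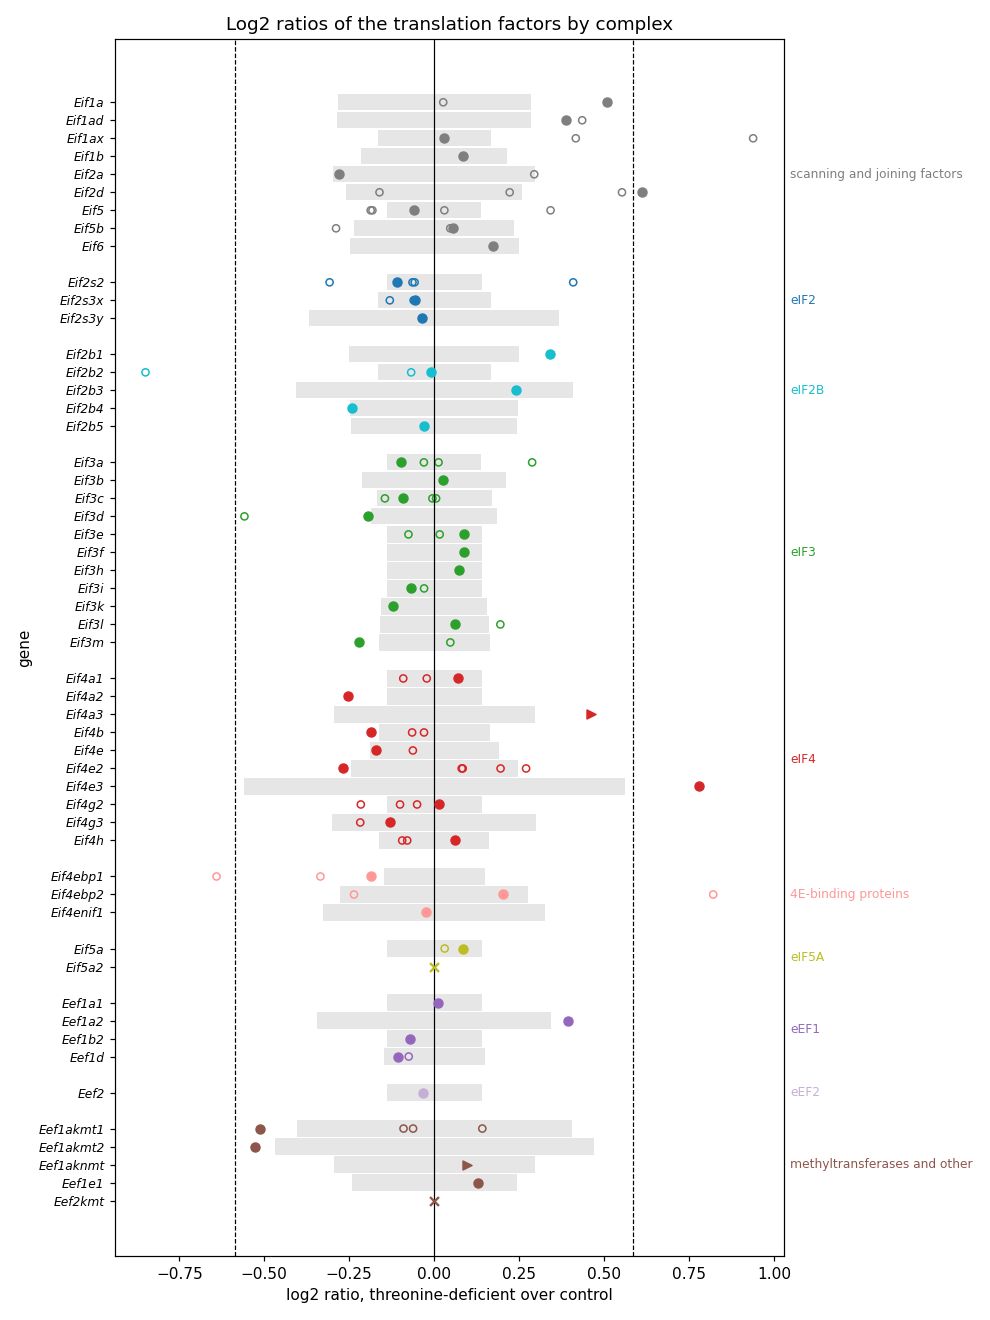
Log2 ratio (threonine-deficient over control) for each gene, grouped by complex: filled points are the brightest probe set, open points other probe sets above the floor, triangles lower bounds, crosses genes at the floor on both arrays, and grey bars plus and minus the local spread. Dashed lines mark 1.5-fold. Most filled points lie within the grey bars, and open points of 1 gene often lie on both sides of zero.

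Of the elongation factors, Eef1a1, Eef1b2, Eef1d and Eef2 lay within their local spreads, and Eef1a2 was higher by more than its own. Eef1a1, which delivers aminoacyl-tRNAs to the ribosome, had 158154 in the threonine-deficient and 157031 in the control pool (0.01). The highest signals of the arrays were 275999 in the threonine-deficient and 263446 in the control pool, and near such values differences can be compressed. Its paralogue Eef1a2, known from muscle and neurons, had 1000.4 in the threonine-deficient and 761 in the control pool (0.39, local spread 0.34). The exchange factor genes Eef1b2 and Eef1d were slightly lower: Eef1b2 had 49705 in the threonine-deficient and 52177 in the control pool (−0.07), and Eef1d had 9800.2 in the threonine-deficient and 10544 in the control pool (−0.11). Over these 4 of the 5 listed genes of eEF1 the median log2 ratio was −0.03, and Eef1g was not among the genes read. Only Eef1a1 and Eef1a2 have probe sets without a sharing suffix, and their median was 0.20. Eef2, which encodes the translocase, had 33164 in the threonine-deficient and 33959 in the control pool (−0.03).

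The hypusine-containing factor eIF5A eases the ribosome over difficult stretches of peptide. Eif5a had 34755 in the threonine-deficient and 32746 in the control pool (0.09), with 0.03 in a second probe set. Its paralogue Eif5a2 was below the floor on both arrays, with 160.0 in the threonine-deficient and 160.7 in the control pool. The enzymes that methylate the elongation factors were dim. Eef2kmt was below the floor on both arrays, and the lowest of the others was Eef1akmt2, with 355 in the threonine-deficient and 511 in the control pool (−0.53, local spread 0.47).

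Repeat readings limit what can be said of single factors. A second probe set above the floor was found for 29 factors, and in 20 of them, or 69.0%, it had the same sign as the brightest one. Over all 4251 such genes the share was 52.1%. The error per probe set, estimated from the differences of these pairs, was 0.23 on the log2 scale for the factors and 0.37 for all genes. In 14 of the 29 factors, or 48.3%, every probe set had one sign, against 41.1% of the 4251 genes. In 6 factors, or 20.7%, the probe sets of 1 gene spanned at least 1.5-fold, against 37.0% of the 4251 genes. Eif1ax is an example of such a span, named after its values were seen, with 0.03 in its brightest probe set and 0.42 and 0.94 in its others. Of the 51 factors above the floor, 37 had a ratio smaller in size than the probe set error of 0.23. The comparisons with the 4251 genes were not matched for signal. Signals over 4000 on both arrays were found for 26 of the 51 factors, against 932 of 10758 genes.

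Promoters were examined for features that the factors share beyond their names. RefSeq promoter windows of 250 bases before to 50 after the annotated start (build GRCm38.p6) were found for 42 of the 53 genes. Many mRNAs of the translation apparatus begin with a terminal oligopyrimidine tract, a C followed by pyrimidines, through which mTORC1 controls their translation. A C at the start followed by at least 4 pyrimidines was found in 2 of the 42, or 4.76%. The share was 3.01% of 27025 genes and 3.15% of the 8698 of them that were above the floor. When the run could begin within 5 bases of the annotated start, 23.8% of the factors had it, Eef1a1 among them. That was so for 21.2% of all genes and 24.0% of those above the floor. The annotated starts were not checked against mapped transcript starts, and runs further away were not counted, so tracts may be missed. The first 2 genes below have the tract at the start itself. The third is the Y-linked partner of the first and has such a run only within 5 bases of the start. Capitals mark the tract at the start itself, in sequences of 30 bases before to 25 after the start, so the run of the third is unmarked.
Eif2s3x (chrX:94212627-94212681, minus strand): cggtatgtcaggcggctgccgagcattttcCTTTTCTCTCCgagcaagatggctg
Eif3f (chr7:108934385-108934439, plus strand): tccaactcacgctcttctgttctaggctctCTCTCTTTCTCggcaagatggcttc
Eif2s3y (chrY:1010565-1010619, plus strand): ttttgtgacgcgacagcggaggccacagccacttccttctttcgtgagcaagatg

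Eif3f had 14291 in the threonine-deficient and 13450 in the control pool (0.09), and Eif2s3x is given above (−0.06). Both genes with the tract at the start itself thus lay within their local spreads. The 10 factors with the run within 5 bases of the start ran from −0.06 to 0.39, the highest being Eif1ad, with a median of 0.00. The 30 others had a median of −0.06.

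The E-box letters CACGTG, which MYC and related factors can bind and which read the same on both strands, were in the windows of 11 of the 42 factors, or 26.2%. They were in 8.09% of all 27025 genes and in 11.8% of the 8698 genes that were also above the floor. Ratios of the 10 E-box factors above the floor ran from −0.17 to 0.10, the higher end a bound for the dim Eef1aknmt, with a median of 0.07. Those of the 30 others ran from −0.53 to 0.61, with a median of −0.03. Over all genes the medians were −0.02 with and 0.00 without the letters. Examples of 40 bases, with the E-box in capitals, show it upstream of factors of cap binding, unwinding and elongation.
Eif4e (chr3:138527187-138527226, plus strand): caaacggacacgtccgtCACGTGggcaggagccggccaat
Eif4h (chr5:134639483-134639522, minus strand): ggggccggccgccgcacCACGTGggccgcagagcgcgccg
Eef2 (chr10:81176571-81176610, plus strand): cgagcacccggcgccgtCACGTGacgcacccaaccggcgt

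The letters CCGGAAG, the core that ETS family factors bind, were searched on both strands after the sequences had been seen. They were in 15 of the 42 windows, or 35.7%, against 9.93% of all genes and 19.5% of those above the floor. The 14 factors above the floor with these letters had a median log2 ratio of −0.02 and the 26 without them −0.03. Examples with the letters in capitals, over the same span as the first set, come from elongation and from eIF2B.
Eef1b2 (chr1:63176801-63176855, plus strand): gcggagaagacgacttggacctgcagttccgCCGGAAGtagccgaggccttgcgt
Eif2b4 (chr5:31193115-31193169, minus strand): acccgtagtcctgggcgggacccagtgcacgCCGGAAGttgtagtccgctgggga

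Letters tied to the amino acid response were searched too. TGATGNAAN, on both strands, was in 1 of the 42 windows, that of Eif2s3x, or 2.38%, against 4.5% of all genes and 2.82% of those above the floor. TTGCATCA was in none of them, against 1.03% of all genes and 0.839% of those above the floor, and nothing is read from counts this small. The cyclic AMP response letters TGACGTCA were in 1 window, that of Eef2, or 2.38%, against 2.03% of all genes and 3.47% of those above the floor. A match in letters is a description and no evidence of binding, and a gene was counted when any of its annotated starts matched.

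Other genes of the pathway were read from 3 lists. Of 27 regulators above the floor, which include the eIF2 and eEF2 kinases, the phosphatase subunits that reverse eIF2 phosphorylation and poly(A)-binding proteins, none differed 1.5-fold in the brightest probe set. Their median log2 ratio was 0.07, with 16 higher and 11 lower. The ratios of Impact (0.35) and Rps6kb2 (0.23) are bounds from control signals under the floor. By more than the local spread 1 of the 27 was higher, Eef2k, and 5 were lower, namely Ppp1r15b, Paip2, Dohh, Ddx3x and Abcf1. Over all genes 15.9% were higher and 16.8% lower by more than it. Ppp1r15b, Paip2 and Ddx3x had signals over 4000 on both arrays, where 73 of 932 genes were higher and 232 lower. The lowest of the 5 was Dohh, which encodes an enzyme of hypusine synthesis, with 1063 in the threonine-deficient and 1525 in the control pool (−0.52). Other probe sets of Ddx3x gave 0.84 and 0.10, and those of Abcf1 gave −0.06, −0.34 and 1.16. These 6 genes were named after their values were seen. So were Eif2ak1, with other probe sets at 0.17 and 0.77, and Eif2ak3, with 0.87 and a bound of −0.53. The amino acid sensing kinase gene Eif2ak4 had 309 in the threonine-deficient and 282 in the control pool (0.13), and Eef2k had 687 in the threonine-deficient and 519 in the control pool (0.40, local spread 0.40). Other probe sets of Eef2k gave −0.04 and 1.32, the higher one a bound from a control signal under the floor. Of 11 genes of release and recycling above the floor none differed 1.5-fold, and their median was 0.00. The factors of mitochondrial translation were lower in 6 of 7 genes, with a median of −0.26, and 2 of the 7 were at least 1.5-fold lower, where 5.36% of all genes were. Tsfm, the exchange factor of mitochondrial elongation, had 390 in the threonine-deficient and 872 in the control pool, 2.23-fold lower, with its other probe set below the floor. Gfm2, of mitochondrial ribosome recycling, had 291 in the threonine-deficient and 479 in the control pool, 1.65-fold lower, but 0.16 in another probe set. Tufm, the mitochondrial elongation factor that delivers aminoacyl-tRNAs, had 923 in the threonine-deficient and 1071 in the control pool (−0.21), and its other probe sets gave −1.10 and 0.68. The brightest of these 7 genes was Gfm1, with 1704 in the threonine-deficient and 1960 in the control pool (−0.20) and 0.06 in another probe set. All 4 of these second readings were bounds with 1 signal under the floor, and 3 of the 6 lower genes thus had a probe set of the other sign.

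**Figure D4:**
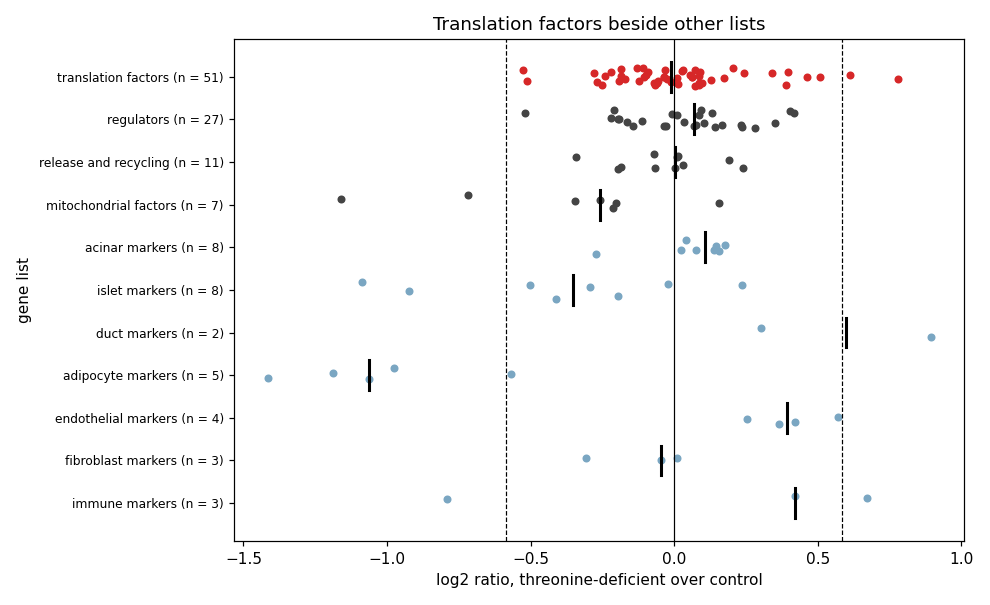
Log2 ratios (threonine-deficient over control) for genes above the floor in each list: the translation factors (red), other genes of translation (dark grey) and cell type markers (blue), with the list median as a black bar and dashed lines at 1.5-fold. Cytosolic factors and regulators centre near zero, while mitochondrial factors, islet markers and adipocyte markers lie mostly on the lower side.

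Marker lists of the cell types in a pancreas were read beside the factors, and their difference from the factors was not tested. Acinar markers were higher in 7 of 8 genes, with a median log2 ratio of 0.11, none 1.5-fold apart, and summed signals of 1255953 in the threonine-deficient and 1167849 in the control pool. Islet markers were lower in 7 of 8, with a median of −0.35 and sums of 143539 in the threonine-deficient and 174798 in the control pool. Adipocyte markers were lower in 5 of 5 above the floor, with a median of −1.06 and sums of 13796 in the threonine-deficient and 31074 in the control pool. Of the remaining markers, 4 of 4 endothelial, 2 of 2 duct, 2 of 3 immune and 1 of 3 fibroblast genes above the floor were higher, and the fibroblast genes had a median of −0.05 with none beyond its local spread. Below the floor in both pools were the duct markers Krt7 and Cftr, the fat hormone gene Lep, the collagen gene Col1a1 and the T cell gene Cd3e. Fewer cells of a type and less RNA per cell cannot be told apart in these whole-tissue pools, and the part of cell composition in the small differences above was not tested.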

How the data were processed

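Whole-pancreas RNA, 1 pool per group, had been labelled with biotin and hybridised to 1 array each. The deposited values are a linear signal intensity per probe set made with MAS5, per the submitters' processing notes. The mean after trimming 2% of values at each end was 500.0 on both arrays, so a difference in total mRNA cannot be seen. Detection calls were not used here, and with so few arrays their number sets the precision.

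Of 45101 probe sets, 64 controls were left out. Of the others 34945 carry 1 gene symbol in the platform annotation, 932 several and 9160 none; 34741 of the first matched a RefSeq gene (GRCm38.p6). Probe sets with several symbols, 8 of which include a factor, named no gene, and subunits without a probe set of their own symbol were not analysed here. The 53 factors have 139 probe sets, 109 above the floor. Each gene was represented by its brightest probe set, of which 24 carry a suffix (_s_at, _x_at or _a_at) that marks possible sharing between transcripts. The floor of 265 is the 60th percentile of the array where that was higher. Ratios are on the log2 scale of floored intensities, computed from the deposited signals with pandas 2.3.3, and where 1 signal lay at the floor a ratio is a bound.

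Both signals are given for every analysed subunit of eIF2, eIF2B and eEF1, the extremes of eIF3 and eIF4 and the 4E-binding proteins. They are also given for the analysed paralogues of eIF4A, eIF4G, eEF1A and eIF5A and every factor 1.5-fold apart. Others were summarised. The members and lists were chosen with earlier results of these data known. Procedures were tested on simulated data. Alternatives covered centring, a loess trend (statsmodels 0.14.6), the floor, the choice of probe set and sharing suffixes.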

Additional observations from a re-analysis of the deposited data

How the results depend on the processing

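Of 390 single-factor ratios recomputed under 8 alternatives, 375 moved by less than the local spread of the gene and 15 moved further. None of the factors 1.5-fold apart changed sign. Many of the 375 could not have moved further. Signals above the floors kept their ratios exactly: 49 with no floor, 49 at the 50th percentile and 47 at the 75th. Centring shifted all 51 by 1 constant, smaller than the local spread of every factor. Median readings of each gene took 4 of 51 beyond the spread, and dropping suffixed probe sets took 5 of 37. Even there, a factor with 1 usable probe set could not change. The median over all factors stayed between −0.03 and 0.02. The eIF3 median was −0.015 with a loess trend removed and −0.0088 when probe sets of a gene were averaged by their median. The eIF4 median was −0.15 both with the floor at the 75th percentile and when suffixed probe sets were dropped, where eIF2B gave 0.24 and eEF1 0.20 over the fewer genes left. The count of factors at least 1.5-fold higher was 4 with no floor, 4 with the floor at the 50th percentile, and 1 with the floor at the 75th percentile, with median readings of each gene and without suffixed probe sets. With a pseudocount it was 2, but the genes were Eif4a3 and Eef1aknmt, and Eif2d and Eif4e3 had 0.53 and 0.45. After loess 1 factor, Eef1akmt2, was at least 1.5-fold lower.

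Counts over all genes depended on the floor. With no floor 1390 genes were at least 1.5-fold higher and 949 lower, and 659 and 388 at 2-fold. With the floor at the 50th percentile the counts were 1324 and 905, and 341 and 206 at 2-fold. At the 75th percentile they were 221 and 224, and 23 and 23 at 2-fold. A pseudocount equal to the floor gave 86 and 52 at 2-fold. No paired analysis was possible because each group is 1 pool. Dim genes, where signal is close to background, limit what can be read.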
